A study of Mus musculus with 16 samples.

Results

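The AP-1 transcription factor subunits studied here are the 10 genes Fos, Fosb, Fosl1, Fosl2, Jun, Junb, Jund, Atf3, Maff and Mafk, chosen by name from the 53679 gene symbols of the expression table. They are represented by 29 of its 135202 isoforms. RNA-seq was performed on 16 primary cortical neuron cultures prepared from mouse embryos at E15, with 4 cultures in each group. CONTROL-VEH cultures received vehicle (DMSO) and a sham procedure, and CONTROL-TIA cultures received 10 μM tianeptine (TIA), an atypical antidepressant, from DIV 8 (day in vitro) before the same sham procedure. OGD-VEH and OGD-TIA cultures received vehicle or 10 μM TIA in the same way and were then exposed on DIV 9 to 3-h oxygen-glucose deprivation (OGD), a model of ischemia in culture. RNA was taken after 6 h of reoxygenation, and TIA had been given 24 h before OGD or sham. The labels call the vehicle cultures of the CONTROL group untreated. Such cultures contain glial cells and precursors beside neurons, and a bulk measurement cannot tell fewer cells of a type from less RNA per cell.

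AP-1 is a dimer of basic leucine zipper (bZIP) proteins. Fos proteins bind DNA as partners of other bZIP proteins, chiefly Jun proteins, whereas Jun proteins also pair with each other. Fos and Fosb are immediate early genes that neurons transcribe within minutes of synaptic activity or injury, Jun and Atf3 are well known from axotomised and dying neurons, and Fosl1 and Fosl2 encode Fos-related antigens without the strong activation domain of Fos. The small Maf proteins lack an activation domain and act with partners such as Nfe2l2.

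Expression is given in FPKM, a read count scaled to isoform length and library size, added over the isoforms of a gene. A group difference was called when the Benjamini-Hochberg adjusted p (padj) of limma, a linear model fitted across all genes, was at most 0.05 with a log2 fold change of at least 1 in either direction. Differences are on the scale of log2(FPKM + 0.1), which understates the change of genes with low values. The estimated depth was 21.2 to 26.98 M reads per culture, at which 1 read corresponds to 0.024 FPKM for Fosl1, 0.023 FPKM for Atf3 and 0.011 FPKM for Fosb, so that the CONTROL values of these genes rest on few reads.

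Stretches of 100 bases that precede the transcription start are shown for Fos, Atf3 and Maff, the members whose promoter windows held the cAMP response element (CRE, TGACGTCA) or its core (TGACGT), a class of site bound by CREB and by ATF and Jun dimers. Capitals mark the match. The sequences are those of RefSeq on GRCm38.p6, written 5′ to 3′ on the strand of the gene, for Fos at chr12:85473790-85473889 (plus strand), for Atf3 at chr1:191183334-191183433 (minus strand) and for Maff at chr15:79347420-79347519 (plus strand).
Fos: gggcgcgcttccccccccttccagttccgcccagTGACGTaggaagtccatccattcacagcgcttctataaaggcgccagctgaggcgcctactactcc
Atf3: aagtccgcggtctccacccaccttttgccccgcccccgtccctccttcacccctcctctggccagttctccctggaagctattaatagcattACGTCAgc
Maff: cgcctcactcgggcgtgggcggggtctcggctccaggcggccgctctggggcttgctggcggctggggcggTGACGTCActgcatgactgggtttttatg
In Fos the core lay 66 to 61 bases before the start, with a TATAAA box from 33 to 28 bases before it. In Atf3 the core was read on the other strand (ACGTCA), 8 to 3 bases before the start. In 1 of the 3 windows of Maff the full CRE, which contains the core on both strands, lay 29 to 22 bases before the start. Windows of 300 bases, from 250 bases before the start to 50 after it, were found for 9 of the 10 members (11 windows), with none for Fosl1. The core was found on either strand in 7.51% of 32851 such windows of the mouse genome and the full CRE in 1.79%. Neither was found in the windows of Jun, Junb, Jund, Fosb, Fosl2 or Mafk, and only exact matches were counted. The Jund window (70697489 to 70697788) ended before the start of its only isoform (70698949). The Fosl2 window (32136222 to 32136521) began after the start of Fosl2-201 (32135801). The windows of Jund and Fosl2 therefore do not cover the start of these isoforms. The AP-1 site itself (TGACTCA, in 5.2% of all windows) and the serum response CArG box (in 1.63%) were found in no member's window. These matches describe the letters of the windows and not binding.

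In the CONTROL-VEH cultures, AP-1 mRNA was mostly Jund, Jun and Fosl2. Jund, a Jun protein that restrains proliferation and is broadly expressed, had 92.2 ± 4.97 FPKM (SD, n = 4), Jun had 36.3 ± 2.22 and Fosl2 had 31.9 ± 2.95. The 4 values of Jund were all above those of Jun, whereas the ranges of Jun and Fosl2 overlapped. Mafk (4.73 ± 0.442), Junb (3.98 ± 0.681), Fos (2.48 ± 0.978) and Maff (1.61 ± 1.05) followed, each overlapping the next. Atf3 (0.287 ± 0.0185), Fosb (0.264 ± 0.107) and Fosl1 (0.112 ± 0.156) were lowest, overlapped each other and lay below Maff in every culture. Jund, Jun and Fosl2 were also the 3 highest members in the other groups, but in OGD-VEH the values of Fosl2 reached down to those of Fos.

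**Figure D1:**
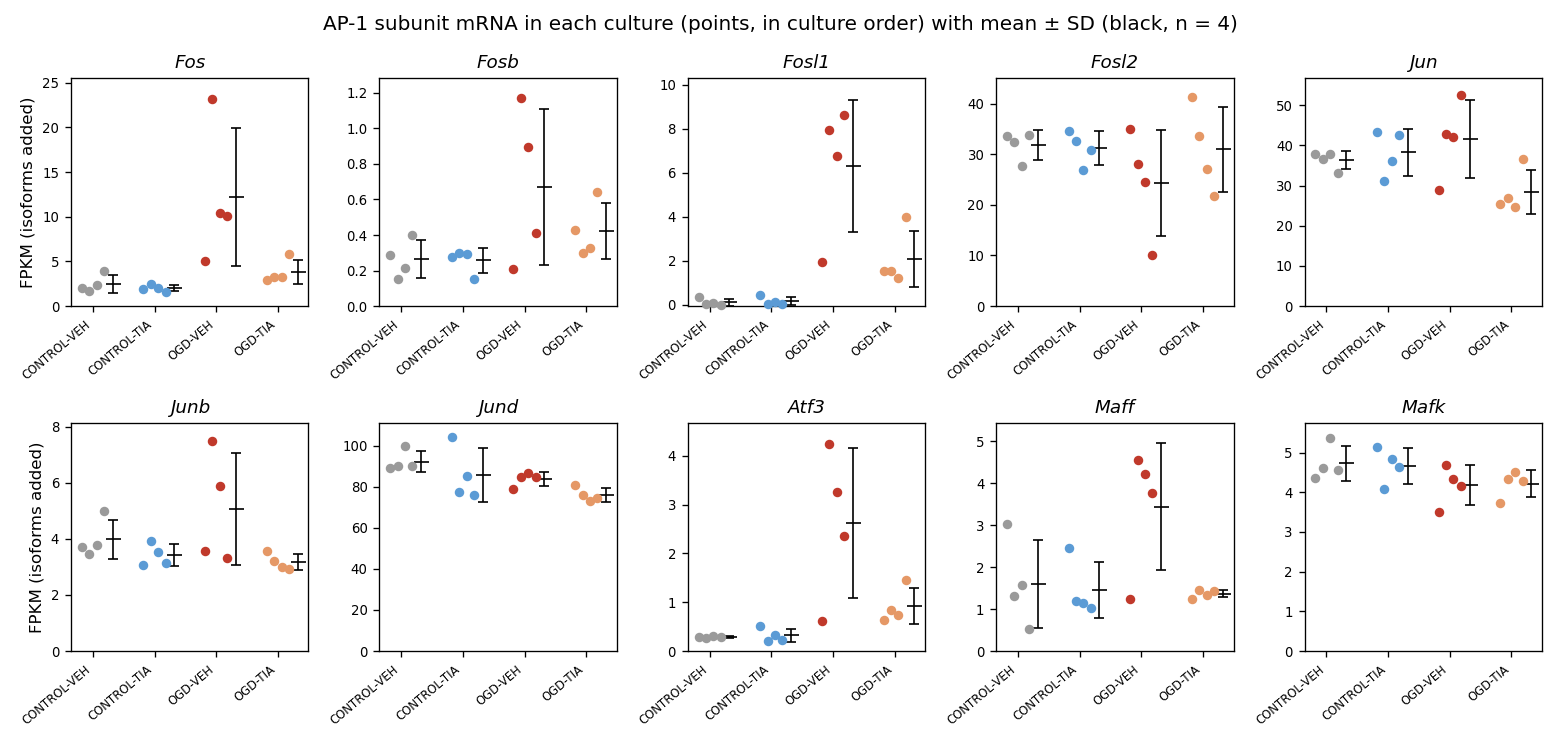
FPKM of each AP-1 subunit in the 16 cultures (points, in the order of culture number within a group) with mean ± SD of the 4 cultures in black. Fos, Fosl1 and Atf3 did not overlap between OGD-VEH and CONTROL-VEH, and OGD-VEH 9 was the lowest OGD-VEH culture for each of them.

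The first question was which subunits OGD changed without TIA. Fosl1, Atf3 and Fos rose and no member fell. Of the 9 members tested, those 3 were called, all upward, where 2.4% of the 16346 genes tested were called upward. Fosb was under the filter of a mean of 0.5 FPKM over the 8 cultures. The median log2 fold change of the 9 members was 0.27, and that of all genes tested was 0.10. Fosl1 (0.112 FPKM in CONTROL-VEH, 6.32 in OGD-VEH) and Atf3 (0.287 and 2.62) passed this filter only through the OGD cultures. The same held in the other comparisons of OGD with CONTROL, so counts and medians over the members are a description. Over the 10 members, the OGD-VEH cultures lay wholly above the CONTROL-VEH cultures for 3 (12.7% of all genes tested) and wholly below them for Jund (9.95% of all genes tested).

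Fosl1 (Fra-1, on chromosome 19 of GRCm38 from 5447547 to 5455946) had 0.341, 0.029, 0.076 and 0 FPKM in CONTROL-VEH cultures 1 to 4 and 1.96, 7.93, 6.77 and 8.63 FPKM in OGD-VEH cultures 9 to 12. It was thus near the limit of detection in CONTROL-VEH, the groups did not overlap, and OGD-VEH 9 was the lowest of the OGD-VEH cultures. The log2 fold change was 4.98 (SE 0.60, padj = 0.0266 from limma), the largest among the members. Because most of the CONTROL-VEH values corresponded to a few reads, this size depends on the pseudocount and was 2.59 with 1 FPKM and 6.55 with 0.01 FPKM, and both were called.

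Atf3, a stress-induced bZIP factor on chromosome 1 (191170296 to 191218039, minus strand), had 0.286, 0.27, 0.313 and 0.279 FPKM in CONTROL-VEH, and 0.621, 4.24, 3.26 and 2.35 in OGD-VEH. The groups did not overlap, and OGD-VEH 9 stood close to the CONTROL-VEH cultures. The log2 fold change was 2.54 (SE 0.53, padj = 0.0367 from limma). Its coding isoforms start at different promoters. Atf3-201, which starts near the sequence shown above, had a mean of 0.158 FPKM in CONTROL-VEH, and 1.93 in OGD-VEH, and made up 73.7% of the summed Atf3 value in OGD-VEH, against 55.1% in CONTROL-VEH. Atf3-203, which starts far upstream, had a mean of 0.129 FPKM in CONTROL-VEH, and 0.647 in OGD-VEH. Isoforms that share most of their sequence are split by probability, and no test was run on these isoform values.

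Fos (chromosome 12, 85473890 to 85477273) had 1.99, 1.68, 2.35 and 3.88 FPKM in CONTROL-VEH, and 5.08, 23.2, 10.4 and 10.1 in OGD-VEH. The groups did not overlap, and OGD-VEH 10 was far above the other OGD-VEH cultures. The log2 fold change was 2.12 (SE 0.44, padj = 0.0371 from limma). Part of this came from a short transcript. Fos-202, a processed transcript of 631 bases within the gene, was listed at 0 in all 8 CONTROL cultures but had 2.25 FPKM in OGD-VEH 9, 9.4 FPKM in OGD-VEH 10 and 0.749 FPKM in OGD-TIA 13. The coding isoform Fos-201 alone (2108 bases) had 1.99, 1.6, 2.35 and 3.88 FPKM in CONTROL-VEH, and 2.83, 13.3, 9.61 and 9.9 in OGD-VEH, so that OGD-VEH 9 then lay within the CONTROL-VEH range. With isoforms under 1 kilobase left out, Fos was still called, with a log2 fold change of 1.70 (padj = 0.0303 from limma).

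**Figure D2:**
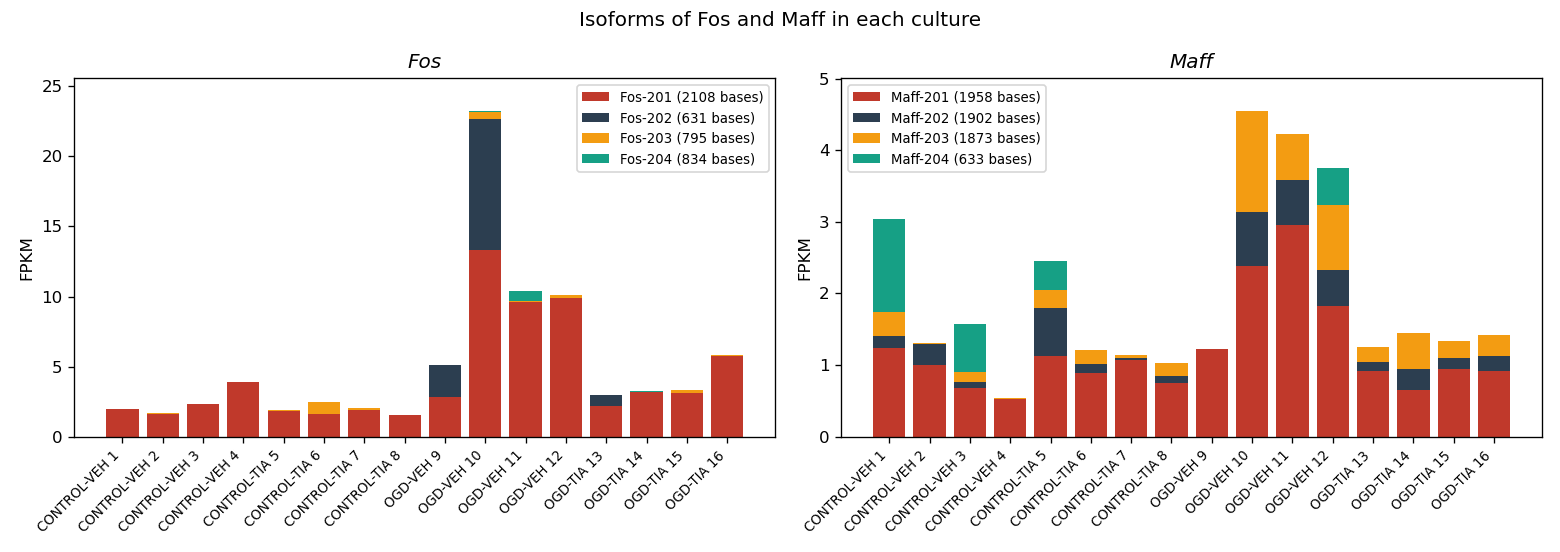
FPKM of each isoform of Fos (left) and Maff (right) in the 16 cultures, stacked to the summed gene value, with isoform lengths in the legend. The short Fos-202 made up 9.4 of 23.2 FPKM in OGD-VEH 10, and the short Maff-204 made up 1.29 of 3.04 FPKM in CONTROL-VEH 1.

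The other Fos family members were not called. Fosb, on chromosome 7 (19302696 to 19310051, minus strand), had 0.29, 0.153, 0.212 and 0.401 FPKM in CONTROL-VEH, and 0.209, 1.17, 0.895 and 0.411 in OGD-VEH. OGD-VEH 10 and 11 were high and OGD-VEH 9 was not, so that the groups overlapped (log2 fold change 0.92, 95% confidence interval -0.21 to 2.06, from the fit without a filter). Fosl2 (Fra-2, on chromosome 5 from 32135801 to 32157842) had 27.6 to 33.9 FPKM in CONTROL-VEH, and 35, 28.1, 24.6 and 10 in OGD-VEH. The low mean of OGD-VEH rested on OGD-VEH 12 (log2 fold change -0.52, SE 0.35, padj = 0.313 from limma), and without that culture the log2 fold change was -0.14.

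The make-up of Fos family mRNA differed between the groups. Fosl2 made up 91.9% ± 2.45 (SD, n = 4) of the summed Fos family FPKM in CONTROL-VEH and 55.3% ± 20.6 in OGD-VEH, with 82.8, 46.5, 57.6 and 34.4% in OGD-VEH cultures 9 to 12. Fos made up 7.09% ± 2.42 and 27.4% ± 11.8, and Fosl1 made up 0.319% ± 0.427 and 15.8% ± 10.4, in the same order. In OGD-VEH 12 the Fos, Fosl1 and Fosl2 shares were close to each other (34.6, 29.6 and 34.4%). The summed Fos family value ranged from 30.2 to 38.2 FPKM in CONTROL-VEH and from 29.2 to 60.5 FPKM in OGD-VEH. FPKM is per length, so these shares can be set side by side, but short isoforms such as Fos-202 add to them. With isoforms under 1 kilobase left out, Fos made up 22.6% ± 11.4, Fosl1 16.6% ± 10.2 and Fosl2 59.1% ± 21.7 in OGD-VEH. The summed family value then reached 50.5 FPKM at most. The shares are given as a description without a test.

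**Figure D3:**
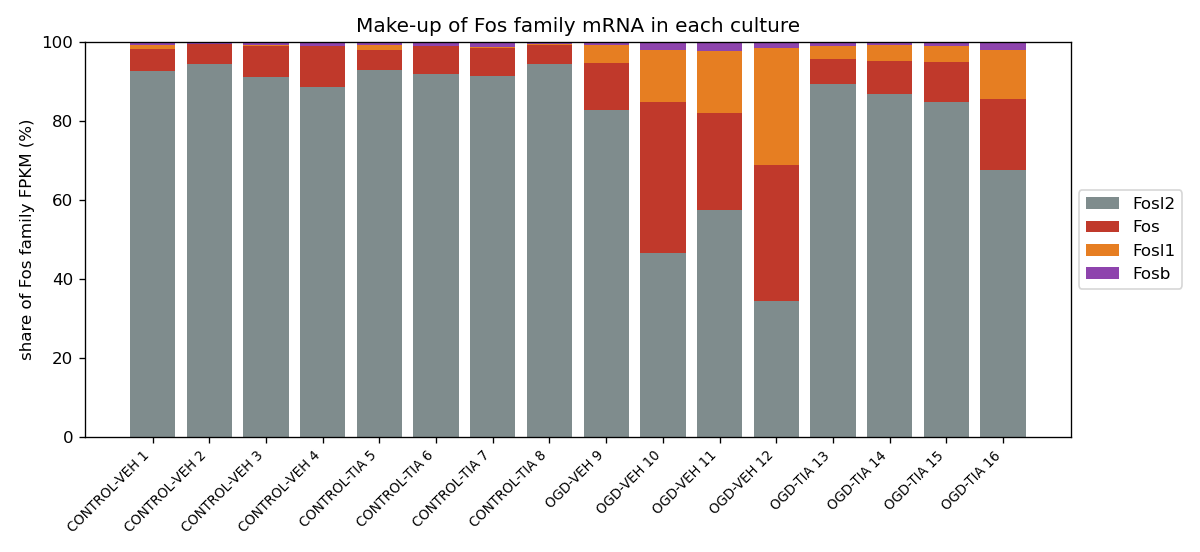
Share of each gene in the summed FPKM of the Fos family (vertical axis, percent) in each of the 16 cultures. Fosl2 made up 88.8 to 94.6% in CONTROL-VEH, 34.4 to 82.8% in OGD-VEH and 67.6 to 89.4% in OGD-TIA.

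No Jun family gene was called. Jun (chromosome 4, 95049034 to 95052222, minus strand) encodes a partner of the Fos proteins. It had 37.8, 36.6, 37.8 and 33.1 FPKM in CONTROL-VEH, and 28.9, 42.8, 42 and 52.5 in OGD-VEH. OGD-VEH 9 was below the CONTROL-VEH range and the other OGD-VEH cultures were above it (log2 fold change 0.16, 95% confidence interval -0.24 to 0.57). Junb (chromosome 8, 84974484 to 84978718, minus strand) had 3.46 to 4.98 FPKM in CONTROL-VEH, and 3.56, 7.5, 5.87 and 3.31 in OGD-VEH, with OGD-VEH 10 and 11 above the CONTROL-VEH range and the others within or below it (log2 fold change 0.27, 95% confidence interval -0.36 to 0.91). Jund (chromosome 8, 70698949 to 70700616) had 89, 89.9, 99.6 and 90.3 FPKM in CONTROL-VEH, and 79.1, 84.9, 86.8 and 84.8 in OGD-VEH. The groups did not overlap, but the difference was small (log2 fold change -0.14, SE 0.09, padj = 0.294 from limma). In a two-sided exact permutation test Jund, like Fos, Fosl1 and Atf3, had p = 0.0286, which is the smallest p that 70 assignments allow and was not adjusted for the 40 such tests run. The share of Jund in the Jun family was 69.6% ± 1.1 in CONTROL-VEH and 64.6% ± 4.53 in OGD-VEH.

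Among the small Maf genes, Maff (chromosome 15, 79346621 to 79359076) had 3.04, 1.31, 1.57 and 0.537 FPKM in CONTROL-VEH, and 1.23, 4.55, 4.22 and 3.76 in OGD-VEH. The values of OGD-VEH 10 to 12 were above every CONTROL-VEH value and that of OGD-VEH 9 was not (log2 fold change 1.11, SE 0.55, padj = 0.184 from limma). The highest CONTROL-VEH value held 1.29 FPKM of the short isoform Maff-204, and with isoforms under 1 kilobase left out Maff was called (log2 fold change 1.44, padj = 0.0434 from limma), where 3.96% of genes were called upward. Without OGD-VEH 9, it was called as well (log2 fold change 1.53, padj = 0.0483 from limma), where 7.24% of genes were called upward. With array quality weights, by which limma down-weights deviating cultures, it was called too (padj = 0.0444), where 6.98% were. OGD-VEH 9 had the lowest weight (0.348), so this fit and the one without OGD-VEH 9 are not separate support. The cut at 1 kilobase was chosen after seeing the data. Maff was not called in 8 of the 10 alternatives, nor in 7 of the 8 fits with 1 culture left out. Mafk, its close relative (chromosome 5, 139791513 to 139802653), had 4.37 to 5.37 FPKM in CONTROL-VEH, and 3.51 to 4.7 in OGD-VEH (log2 fold change -0.18, 95% confidence interval -0.52 to 0.16).

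The 3 calls depended on single cultures. With 1 culture left out, the Fos call was lost in 7 of 8 cases (padj from limma 0.0052 to 0.103), the Atf3 call in 7 (0.00192 to 0.109) and the Fosl1 call in 5 (0.00204 to 0.0999), while the log2 fold changes stayed within 1.74 to 2.47, 2.23 to 3.09 and 4.70 to 5.46, in that order. The 3 members kept their calls without OGD-VEH 9. In the other 7 cases the calls over all genes fell from 668 to between 1 and 71.

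The second question was whether OGD changed the same subunits in cultures that had received TIA. No member was called between OGD-TIA and CONTROL-TIA, where limma called 0 of 16242 genes and the smallest padj was 0.0741. At an unadjusted p under 0.05, Fosl1, Fos and Atf3 were higher, as were 11.6% of all genes tested, and Jun was lower, as were 7.92%. Over the 10 members, the OGD-TIA cultures lay wholly above the CONTROL-TIA cultures for these 3 (9.51% of all genes tested).

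Fosl1 had 0.462, 0.054, 0.114 and 0.049 FPKM in CONTROL-TIA cultures 5 to 8 and 1.52, 1.56, 1.24 and 3.99 FPKM in OGD-TIA cultures 13 to 16. The groups did not overlap, and OGD-TIA 16 was the highest. The log2 fold change was 3.10 (SE 0.53, padj = 0.101 from limma). Fosl1 was called with isoforms added in proportion to length (padj = 0.0432 from limma), where 0.132% of genes were called upward. Fosl1 has 1 isoform, so its own values were the same there and only the values of other genes in the fit differed. Atf3 had 0.519, 0.216, 0.324 and 0.223 FPKM in CONTROL-TIA and 0.632, 0.846, 0.74 and 1.46 FPKM in OGD-TIA (log2 fold change 1.27, SE 0.35, padj = 0.145 from limma). Fos had 1.92, 2.44, 2.07 and 1.57 FPKM in CONTROL-TIA and 2.95, 3.27, 3.3 and 5.83 FPKM in OGD-TIA (log2 fold change 0.87, SE 0.24, padj = 0.144 from limma). In all 3 genes OGD-TIA 16 was the highest culture of its group, and each had an exact permutation p of 0.0286 (two-sided).

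Jun had 43.4, 31.1, 36.2 and 42.7 FPKM in CONTROL-TIA and 25.5, 26.8, 24.7 and 36.7 FPKM in OGD-TIA. OGD-TIA 13 to 15 were below every CONTROL-TIA culture and OGD-TIA 16 was within their range (log2 fold change -0.44, SE 0.16, padj = 0.207 from limma). Maff stayed within 1.25 to 1.45 FPKM in OGD-TIA, against 1.02 to 2.45 FPKM in CONTROL-TIA (log2 fold change -0.01, 95% confidence interval -0.62 to 0.61). Fosl2 had 41.3, 33.6, 27.1 and 21.8 FPKM in OGD-TIA and 26.8 to 34.7 FPKM in CONTROL-TIA (log2 fold change -0.05, 95% confidence interval -0.49 to 0.40), with OGD-TIA 13 above and OGD-TIA 16 below the CONTROL-TIA range. Fosb (log2 fold change 0.53, from the fit without a filter), Junb (-0.10), Jund (-0.16) and Mafk (-0.14) had intervals that included 0. Fosl2 made up 82.2% ± 9.88 of Fos family FPKM in OGD-TIA and 92.8% ± 1.35 in CONTROL-TIA, and Fosl1 made up 5.9% ± 4.35 and 0.483% ± 0.517.

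**Figure D4:**
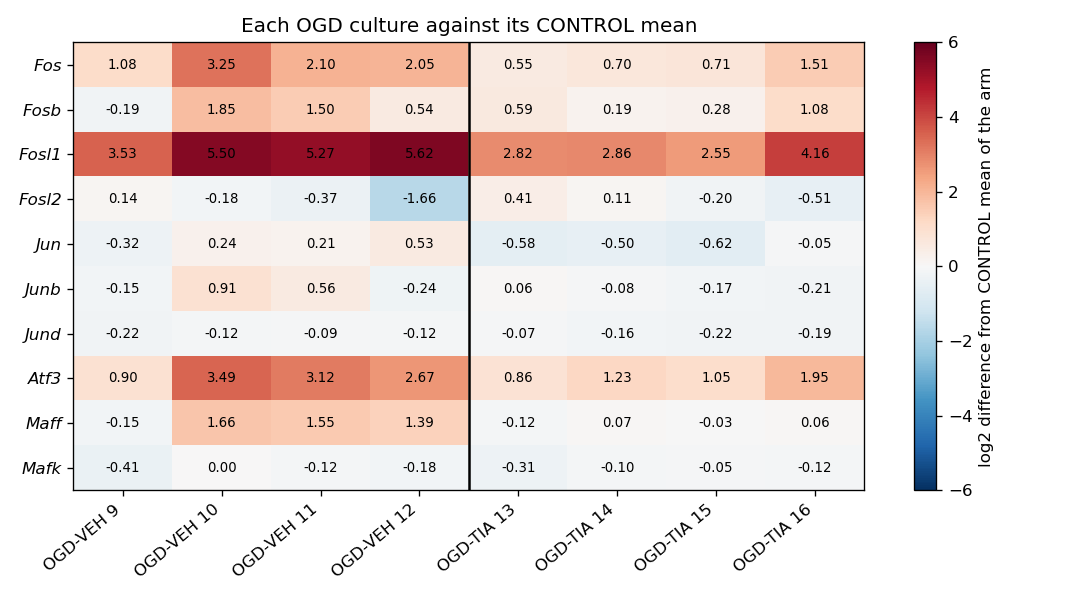
Log2 difference of each OGD culture from the mean of the CONTROL cultures with the same pretreatment, for each member (rows) and culture (columns). Fosl1 was above its control mean in all 8 cultures, by 2.55 to 5.62, and Fosl2 in OGD-VEH 12 was below it by 1.66 (-1.66).

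With both arms in 1 model and TIA as a term, Fosl1 (log2 fold change 4.04, padj = 0.000435 from limma), Atf3 (1.91, padj = 0.00259) and Fos (1.49, padj = 0.00378) were called for OGD against CONTROL, of 9 members tested, where 2.8% of 16313 genes were called upward. These 3 calls were made in each of the 16 fits that left out 1 culture. With a pseudocount of 1 FPKM the log2 fold change of Atf3 was under the threshold of 1, and with a minimum mean of 2 FPKM Atf3 was not tested. Jund did not pass (log2 fold change -0.15, 95% confidence interval -0.29 to -0.01, padj = 0.0858 from limma).

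The third question was the effect of TIA itself. In sham cultures, limma called 0 of 16170 genes between CONTROL-TIA and CONTROL-VEH, and 621 (3.84%) had an unadjusted p under 0.05, none of them a member. Fosb, Fosl1 and Atf3 were under the filter there. The groups overlapped for all 10 members. The 95% confidence intervals of the log2 fold change were narrow for Jun (-0.21 to 0.34), Fosl2 (-0.28 to 0.22), Mafk (-0.27 to 0.24) and Jund (-0.37 to 0.14), and wide for Fosl1 (-0.97 to 1.70, from the fit without a filter) and Maff (-1.11 to 1.10).

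After OGD, limma called 0 of 16351 genes between OGD-TIA and OGD-VEH. The log2 fold change was below 0 for 8 of the 10 members, and it was above 0 for only 43.3% of all genes tested. The median was -0.56 over the members and -0.05 over all genes tested. Fosb passed the filter there only through OGD-VEH (0.67 FPKM, against 0.424 FPKM in OGD-TIA). At an unadjusted p under 0.05, Fos (-1.49, 95% confidence interval -2.49 to -0.50), Fosl1 (-1.52, -2.73 to -0.30), Maff (-1.12, -2.02 to -0.23) and Jun (-0.53, SE 0.20) were lower with TIA, as were 5.04% of all genes tested, and their padj was 0.551 (limma). Atf3 was at -1.21 (-2.47 to 0.06) and Junb at -0.58 (-1.19 to 0.04). The groups overlapped for all 10 members. OGD-VEH 9 lay within the OGD-TIA range for Fos, Fosl1 and Jun, and OGD-TIA 16 was the highest OGD-TIA culture for Fos, Fosl1, Jun and Atf3. Ranked over the 8 OGD cultures, OGD-VEH 10, 11 and 12 held the 3 highest values of Fos, Fosl1, Jun, Jund, Atf3 and Maff, and OGD-VEH 9 was the lowest of all 8 for Atf3, Maff, Fosb and Mafk. Without OGD-VEH 9, OGD-TIA lay wholly below OGD-VEH for those 6 genes, which follows from these ranks and is no further result. The same held for 12.9% of all genes tested (2.51% with all cultures). Without that culture the log2 fold change was -1.84 for Fos, -1.75 for Atf3 and -1.54 for Maff, with padj from 0.105 to 0.141 (limma).

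**Figure D5:**
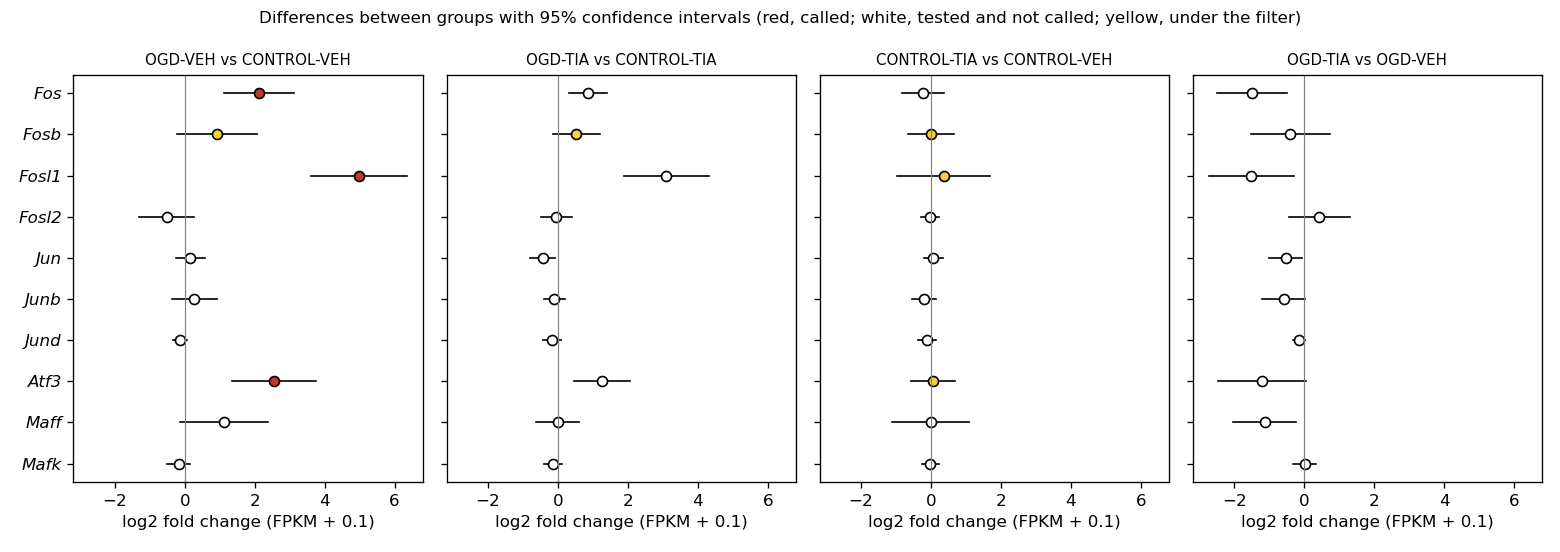
Log2 fold change (horizontal axis) with 95% confidence interval for each AP-1 subunit in the 4 comparisons; red points were called, white points were tested and not called, and yellow points are from the fit without a filter. The red points are Fos, Fosl1 and Atf3 in OGD-VEH vs CONTROL-VEH.

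Whether the OGD effect differed with TIA was tested as an interaction over the 16 cultures. Limma called 0 of 16313 genes. The OGD effect was lower with TIA at an unadjusted p under 0.05 for Fos (-1.25, SE 0.53), Fosl1 (-1.88, SE 0.84) and Jun (-0.60, SE 0.24), as it was for 3.4% of all genes tested, each with a padj of 0.722 (limma). For Atf3 the estimate was -1.27 (95% confidence interval -2.65 to 0.11) and for Maff it was -1.12 (-2.51 to 0.27). For Mafk (-0.33 to 0.40) and Jund (-0.31 to 0.26) the intervals were narrow around 0. With array quality weights, Fos was called in the interaction, as were 0.356% of all genes tested in that direction (58 genes). Fos, Fosl1, Atf3 and Maff were then called lower in OGD-TIA than in OGD-VEH, as were 1.6% of all genes tested (262 genes).

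In each OGD group, Fosl1 was highest in the culture with the lowest neuronal marker level. The summed FPKM of 11 neuronal marker genes, all detected, ranged from 2927 to 3553 in CONTROL-VEH, 2973 to 3138 in CONTROL-TIA, 1304 to 2645 in OGD-VEH and 1756 to 2916 in OGD-TIA. It was highest among OGD-VEH cultures in OGD-VEH 9 (2645), where Fosl1 was lowest, and lowest in OGD-VEH 12 (1304), where Fosl1 was highest. Fos (23.2 FPKM) and Atf3 (4.24 FPKM) were instead highest in OGD-VEH 10, where the neuronal sum was 1959. In OGD-TIA 16 the neuronal sum was 1756, against 2777 to 2916 in the other OGD-TIA cultures. The sum over 9 astrocyte markers, all detected, was 769 to 1642 in CONTROL-VEH, 673 to 890 in CONTROL-TIA, 1034 to 2607 in OGD-VEH and 773 to 1981 in OGD-TIA. For the oligodendrocyte lineage (7 of 8 markers with a mean of at least 0.5 FPKM) it was 177 to 213 in CONTROL-VEH, 159 to 194 in CONTROL-TIA, 244 to 676 in OGD-VEH and 225 to 438 in OGD-TIA. For dividing progenitors (6 of 6 markers) it was 106 to 163, 104 to 120, 148 to 427 and 126 to 309, in the same order of groups. Microglial markers (2 of 10 with a mean of at least 0.5 FPKM), pericyte and fibroblast markers (2 of 8) and endothelial markers (0 of 5) were low. Their summed ranges were 7.74 to 13.3, 7.39 to 18.3 and 0.398 to 0.705 FPKM over all groups, with Cx3cr1 and C1qb at 0 in CONTROL-TIA, Cldn5 and Cdh5 at 0 in OGD-VEH and Cldn5 at 0 in OGD-TIA. Single markers were called after OGD without TIA, the synaptic vesicle gene Syt1 downward (log2 fold change -1.52) and Olig1 (1.25), Olig2 (1.41), Sox10 (1.46) and Cspg4 (1.06) of the oligodendrocyte lineage and Nes (1.71) of progenitors upward. The part of cell composition in the AP-1 values was not tested.

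The genes around AP-1 were read from lists that hold no member. After OGD without TIA, 2.4% of all genes tested were called upward, and 275 of 16346 were called downward. At an unadjusted p under 0.05 (limma), 20.2% of all genes tested were higher and 14.9% were lower. The counts of each list stand beside these shares. Of 21 tested bZIP partners and relatives, 4 rose after OGD without TIA and 0 fell, with a median log2 fold change of 0.19 (0.10 over all genes tested). At an unadjusted p under 0.05, 9 were higher and 2 were lower. Nfe2l2, the antioxidant regulator that pairs with small Maf proteins, rose from 8.9 ± 2.01 to 40.4 ± 19.3 FPKM (log2 fold change 2.04, padj = 0.0337 from limma). Cebpd (2.04), Crem (1.19) and Cebpb (1.17), bZIP factors of the C/EBP and CREB families, rose as well. Between OGD-TIA and CONTROL-TIA none of 20 was called, and Nfe2l2 had 8.7 ± 0.874 FPKM in CONTROL-TIA and 22.1 ± 11.5 FPKM in OGD-TIA. Crem had 13.9 ± 3.24 FPKM in CONTROL-TIA and 8.16 ± 2.46 FPKM in CONTROL-VEH (log2 fold change 0.78, unadjusted p = 0.0189 and padj = 0.999 from limma).

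Of 27 kinases and regulators upstream of AP-1, 1 fell after OGD without TIA and 0 rose, with a median of -0.26. At an unadjusted p under 0.05, 12 were lower and 5 were higher (14.9% and 20.2% of all genes tested). The gene that fell was Map3k12, the dual leucine zipper kinase of the JNK pathway, from 64.8 ± 6.17 to 32.1 ± 9.55 FPKM (log2 fold change -1.06, padj = 0.036 from limma). Map3k11, another JNK pathway kinase (0.83), Elk4, a ternary complex factor (0.89), and Fbxw7, the ubiquitin ligase subunit that targets Jun (-0.66), had padj between 0.0336 and 0.0347 (limma) but were under the threshold of size. Between OGD-TIA and CONTROL-TIA none of the 27 was called.

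Of 32 genes known as AP-1 targets, 21 passed the filter, and of these 10 rose and 0 fell after OGD without TIA, with a median log2 fold change of 1.67. The filter admits low genes through the group in which they are high, so the count and the median are a description. At an unadjusted p under 0.05, 15 were higher and 1 was lower (20.2% and 14.9% of all genes tested). Emp1, an epithelial membrane protein gene, rose from 0.844 ± 0.406 to 24.1 ± 10.9 FPKM (log2 fold change 4.65, padj = 0.0161 from limma). Timp1, a metalloproteinase inhibitor (4.13), Cd44, the hyaluronan receptor (3.22), and Hbegf, an EGF receptor ligand (1.18), rose as well. Their groups did not overlap, as for 12.7% of all genes tested upward, but they were named for their small p in this comparison. The other genes called were Ccl2 (4.38), Lgals3 (3.66), Anxa1 (3.33), Hmox1 (3.03), Plaur (2.90) and Spp1 (2.29), with roles in inflammation, matrix and the heme stress response. Between OGD-TIA and CONTROL-TIA none of 19 was called and the median was 0.82. There 11 had an unadjusted p under 0.05 upward, as did 11.6% of all genes tested. In OGD-TIA Emp1 had 9.21 ± 5.56 FPKM and Timp1 had 2.78 ± 1.27 FPKM.

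Of 19 tested neuronal injury genes downstream of Jun and Atf3, 5 rose and 0 fell after OGD without TIA, with a median of -0.04. At an unadjusted p under 0.05, 6 were higher and 6 were lower (20.2% and 14.9% of all genes tested). Sprr1a, a cornified envelope gene known from regenerating neurons, rose from 0.0177 ± 0.0355 to 2.04 ± 1.08 FPKM (log2 fold change 3.99, padj = 0.0281 from limma). Hspb1, a small heat shock protein (2.77), Csf1, a growth factor of microglia (2.35), Itga7, a laminin receptor subunit (1.74), and Gadd45a, a DNA damage response gene (log2 fold change of 1.10), rose too. None of 18 was called between OGD-TIA and CONTROL-TIA.

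Other immediate early genes did not move as 1 group. Of 19 tested, 2 rose and 1 fell after OGD without TIA, with a median of 0.38. At an unadjusted p under 0.05, 5 were higher and 3 were lower, near the shares of all genes tested (20.2% and 14.9%). Ier3 (log2 fold change 2.26, padj = 0.0357 from limma) and Btg2 (1.27, padj = 0.0437) rose, while Egr3, an activity-dependent zinc finger gene, fell from 15.4 ± 5.36 to 3.97 ± 1.65 FPKM (-1.99, padj = 0.0372). Myc had 35.7 ± 9.54 FPKM in CONTROL-VEH, 67.3 ± 13.3 FPKM in OGD-VEH and 37.5 ± 9.11 FPKM in OGD-TIA. It passed padj but not the threshold of size (0.93, padj = 0.0427 from limma). All 4 OGD-TIA cultures were below all 4 OGD-VEH cultures, as for 2.51% of all genes tested. Between OGD-TIA and CONTROL-TIA none of 19 was called.

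For each member with a mean of at least 0.5 FPKM, the genes whose log2 values followed it most closely over the 16 cultures were found by Pearson correlation. The cultures share the OGD treatment, so these values are a description without a test. Nearest to Fosl1 were Emp1 (r = 0.985) and Ptgr1 (0.980), with 1110038B12Rik between them (0.983). Nearest to Atf3 were Pde3a (0.981), Gtse1 (0.980) and Rbm7 (0.977). Fos was nearest to Rnf43 (0.966), Zfp263 (0.950) and Ell2 (0.949), and Fosl2 to Galnt14 (0.954), Slc2a3 (0.954) and Tshz3 (0.949). The likeness of the nearest gene was lower for Maff, with 4921504A21Rik (0.914), Phf5a (0.904) and Wdr77 (0.891), for Jun, with Pde4b (0.892), Astn2 (0.881) and Ctnnd1 (0.880), and for Junb, with Gm8260 (0.914), mt-Rnr1 (0.874) and Egr1 (0.806). By the nearest gene it was lowest for Jund, with Gas2l1 (0.842), 2310033P09Rik (0.840) and Sf3b5 (0.837), and for Mafk, with Taf9 (0.787), Gm38393 (0.785) and Gm6477 (0.776). Among the members themselves, r was 0.94 between Fosl1 and Atf3, 0.92 between Fos and Atf3 and 0.83 between Fos and Fosl1. After the group means had been removed, these values were 0.76, 0.74 and 0.37. Among all pairs of these members, r was lowest between Fosl2 and Jun, at -0.59 over the 16 cultures and -0.67 within groups. OGD-VEH 12 held both the lowest Fosl2 value (10 FPKM) and the highest Jun value (52.5 FPKM) of all cultures.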

How the data were processed

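RNA of 16 cultures was sequenced with stranded 50-base single-end libraries by a company, ATLAS Biolabs, for the study. Per the labels and the study's methods, FastQC was used for quality control, reads were mapped with STAR to GRCm38, and eXpress gave isoform abundances. The deposited values are isoform FPKM scaled between libraries by TMM, which the name of the table states. The authors tested counts with DESeq2; counts were not analysed here. Reads shared by isoforms, or by near-identical genes, are split by probability, which can shift single isoform values.

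Here 74 of 135276 lines without an identifier were left out and isoform FPKM were added by gene symbol. GENCODE M21 lists 99.89% of the isoforms. Depth was estimated from the FPKM of 1 read over 17592 genes with a single isoform, and is approximate. No 2 cultures held the same values. The 4 groups were taken from the labels. Whether the cultures of a group came from separate dissections is not given in the sources used here beyond 4 biological replicates, so p-values measure the spread between these cultures.

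Genes averaging 0.5 FPKM or more over the cultures compared were tested with limma 3.58.1 in R 4.3.3 on log2(FPKM + 0.1), with an empirical Bayes trend, and adjusted by Benjamini-Hochberg over all genes tested. The same model without a filter gave values for members under it. The fit was also run on simulated data in which every group had the spread of CONTROL-VEH. That run could not test the fit under unequal spread. In the data, the SD of log2 values of Atf3 was 0.07 in CONTROL-VEH and 1.15 in OGD-VEH. Exact permutation tests were two-sided. Other steps used Python 3.11.15 and pandas 2.3.3. Alternatives were pseudocounts of 1 and 0.01 FPKM, median-ratio scaling, no filter or a filter at a mean of 2 FPKM, robust empirical Bayes, array quality weights, isoforms weighted by length, all 16 cultures in 1 fit and leaving out each culture. Leaving out isoforms under 1 kilobase was chosen after seeing the data.

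All members are named, with the 4 genes of smallest p in OGD-VEH vs CONTROL-VEH from each of 5 lists and the 3 genes most correlated with each member. The members and lists were chosen with earlier results of these data known. Promoter sequences are from RefSeq.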

Additional observations from a re-analysis of the deposited data

Results flagged for a closer look

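In 5 of the 40 combinations of member and group, 1 culture stood apart from the other 3 by Dixon's ratio of its gap to the range of the log2 values, where chance gives about 2 in 40. Fosl1 was low in OGD-VEH 9 (1.96 FPKM, ratio 0.834), as was Maff in the same culture (1.23 FPKM, ratio 0.851). Fos was high in OGD-TIA 16 (5.83 FPKM, ratio 0.838). Fosb was low in CONTROL-TIA 8 (0.154 FPKM, ratio 0.871), and Jund was high in CONTROL-VEH 3 (99.6 FPKM, ratio 0.876).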

How the results depend on the processing

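Over the alternatives, 313 of 323 log2 fold changes of single members in the 2 comparisons of OGD with CONTROL kept their sign. The others, all between OGD-TIA and CONTROL-TIA, were Fosl2 with array quality weights (0.07) and without CONTROL-TIA 5, OGD-TIA 15 or OGD-TIA 16 (-0.20 to 0.11 over the cultures left out), and Maff with array quality weights (0.07), isoforms added in proportion to length (0.03), isoforms under 1 kilobase left out (0.06) and without CONTROL-TIA 5, OGD-TIA 13 or OGD-TIA 15 (-0.13 to 0.26). Members called between OGD-VEH and CONTROL-VEH numbered 3, and 1 (Fosl1) without a filter on low values, where 36 of 32532 genes were called. They numbered 2 (Fos and Fosl1) at a minimum mean of 2 FPKM, 4 (with Maff) with array quality weights and with isoforms under 1 kilobase left out, and 0 to 4 with 1 culture left out. Between OGD-TIA and CONTROL-TIA 1 member (Fosl1) was called with array quality weights, with isoforms added in proportion to length and with isoforms under 1 kilobase left out. The 2 ways of adding isoforms do not change the values of Fosl1, which has 1 isoform. With array quality weights, 4 members and 408 of all 16351 genes were called between OGD-TIA and OGD-VEH, and 1 member and 101 of 16313 genes in the interaction. With 1 culture left out, 0 members were called in these comparisons, and 3 in the model with both arms. With 1 culture left out, members whose groups did not overlap numbered 4 to 7 (7 without OGD-VEH 9) between OGD-VEH and CONTROL-VEH, 3 to 5 (5 without CONTROL-TIA 6) between OGD-TIA and CONTROL-TIA, 0 to 1 (Jund, without CONTROL-TIA 5) between the CONTROL groups, and 0 to 6 between OGD-TIA and OGD-VEH, with 6 without OGD-VEH 9, 3 without OGD-TIA 16 and 2 without OGD-TIA 13. Over all genes tested the share without overlap was then 24.3 to 43.1%, 19.4 to 23.1%, 3.82 to 5.63% and 5.14 to 19.1%, in the same order, and 22.7%, 16.2%, 2.06% and 3.8% with all cultures. The causes were not tested. Depth limits Fosl1, Fosb and Atf3 in CONTROL cultures. No paired analysis was run, because the labels number the cultures 1 to 16 across the groups and state no link between cultures of different groups.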
